A study of Apostichopus japonicus with 9 samples.

Results

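The genes described here are those that the sea cucumber *Apostichopus japonicus* uses to burn, build and modify fatty acids, to assemble and run peroxisomes, and to make sterols. They were taken from the table of 53665 genes by their KEGG annotation: a gene had to belong to 1 of 6 pathways (Fatty acid degradation, Fatty acid metabolism, Fatty acid elongation, Biosynthesis of unsaturated fatty acids, Peroxisome, Steroid biosynthesis) and to be above 0 in at least 2 libraries. Of 191 genes in these pathways, 184 were detected in that sense, and 47 of them were left out because they also belong to central carbon, glutathione, tryptophan or lysosome pathways or are described as catalase, superoxide dismutase or peroxiredoxin. This left 137 genes, which carry 63 different KEGG ortholog numbers. The 7 genes just outside the detection limit reached at most 0.161 FPKM in any library, and the 3 genes just inside it reached 0.0614 to 0.197 FPKM. FPKM is a count of fragments divided by transcript length and by the size of the library.

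The body wall was removed from live animals of 150 ± 20 g body weight, without viscera and head, and cut into pieces. Pieces were frozen fresh (CON) or after 1 h (T_1h) or 3 h (T_3h) on plates at 37 °C, with 3 libraries at each stage. There is no group of pieces kept at another temperature for the same time, so time since dissection and warming cannot be told apart. The labels do not say how many animals a library holds or whether the same animal gave pieces to several stages. The study set aside the first T_1h library, T_1h_1, because its correlation with the others was low. Its values are printed here, but the fit used the other 8 libraries.

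Fatty acids are activated with coenzyme A, passed into mitochondria on carnitine and shortened there by beta-oxidation, while very long and branched chains are first shortened in peroxisomes. Synthesis runs the other way, from malonyl-CoA to palmitate, followed by elongases and desaturases. Sterols are made from mevalonate through squalene, which lanosterol synthase closes into rings, and a series of reductases and demethylases then trims the product. In sea cucumbers the same cyclisation also supplies the skeletons of the triterpene saponins that the animals carry in their body wall. The enzyme roles given below are known from vertebrates or yeast, and the genes were assigned to them by their KEGG ortholog.

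Across the 9 libraries most of these genes were expressed at low levels. The mean over the 8 fitted libraries was at least 1 FPKM in 63 of the 137 genes, at least 5 FPKM in 18 and at least 10 FPKM in 4, and it was under 0.1 FPKM in 25. A total of 97 genes were above 0 in all 9 libraries. The most abundant was a stearoyl-CoA desaturase (SCD, MSTRG.45070), with a mean of 48.3 FPKM. It was followed by HADHB (MSTRG.41467), the thiolase subunit of the mitochondrial trifunctional enzyme, at 17.3 FPKM. AGPS (MSTRG.36898), which forms the ether bond of plasmalogens in peroxisomes, had a mean of 11.2 FPKM.

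Several textbook enzymes were present only at trace levels. All 9 genes with the long-chain acyl-CoA dehydrogenase ortholog (ACADL) had means between 0.00706 and 0.283 FPKM. The 4 acyl-CoA oxidase genes (ACOX), which catalyse the first step of peroxisomal beta-oxidation, had means from 0.0424 to 0.333 FPKM. By contrast, the 4 genes with the very long-chain acyl-CoA dehydrogenase ortholog (ACADVL) had means from 2.64 to 6.64 FPKM.

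Summed over all 137 genes, expression was 377, 345 and 493 FPKM in the CON libraries, 355, 208 and 322 FPKM in the T_1h libraries, with T_1h_1 first, and 289, 94.1 and 275 FPKM in the T_3h libraries. These sums amounted to 0.112%, 0.0954% and 0.140% of the library's FPKM in CON, 0.0914%, 0.0600% and 0.0933% in T_1h and 0.0850%, 0.0273% and 0.0789% in T_3h. As deposited, all 3 T_3h libraries lay below the lowest CON library, and T_3h_2 lay lowest of all. Without SCD this separation of the sums was lost, with 268 FPKM in T_3h_3 against 256 FPKM in CON_1. The sums were not rescaled between libraries, so the separation holds for deposited values only. The median-ratio scaling factor used below was lowest in T_3h_2 (0.594) and highest in CON_3 (1.49). Fewer cells of a type and less RNA per cell cannot be told apart in such bulk tissue.

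In the comparison of T_3h with CON, 9 of the 136 genes tested were lower and 0 were higher, where passing means a limma p, before adjustment, of 0.05 or less together with a change of 1 or more on the log2 scale in either direction. Fold changes are on the log2(FPKM + 1) scale, which understates the change of low genes, and the test is limma's moderated test. The 9 genes are 6.62% of those tested, against 4.14% of all 50973 genes tested past the same limits (3.67% lower and 0.473% higher). At an unadjusted p under 0.05 alone there were 12 genes (6.19% of all genes). After Benjamini-Hochberg adjustment over all genes in limma there were 0, and 0 of all 50973 genes tested. The median log2 fold change was -0.30 over these genes and -0.17 over all genes.

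In 26 of the 136 genes (19.1%) all 3 T_3h libraries lay below all 3 CON libraries, which was so for 9.0% of all genes, and in 0 genes did they lie above (1.68% of all genes). Of the 63 genes with a mean of at least 1 FPKM, 60 had a log2 fold change below 0 (79.7% of all genes at that level), with a median of -0.67 against -0.40. Of these, 8 passed the thresholds (12.7%, against 9.77%).

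Library scaling mattered for the size of these differences. When libraries were rescaled by median ratios, the median of all genes at T_3h was -0.02 instead of -0.17 and that of the fatty acid, peroxisome and sterol genes -0.09 instead of -0.30. The split of calls then was 1 higher and 4 lower, in place of 0 higher and 9 lower, so that 3.68% of these genes passed, against 2.81% of all genes. All 3 T_3h libraries then lay below CON in 19 of 136 genes (5.54% of all genes) and above CON in 0 (3.86% of all genes). The genes that were lower after rescaling included LSS, CPT1A and PMVK, described below. Without T_3h_2 the count of lower genes was 5 (3.68%, against 2.43% of all genes in either direction). Without T_3h_3 it was 18 (13.2%, against 7.28% of all genes). With the replicate number as a block it was 13, which is 9.56% of these genes against 6.22% of all genes. A fit chosen after seeing the data joined the block with all 9 libraries and a mean of at least 1 FPKM, and 12 of 62 genes then passed the thresholds (15.5% of all genes at that level) and 5 of 62 had an adjusted p under 0.05 in limma (6.35% of all genes at that level). With median-ratio scaling added, 1 of 62 had an adjusted p under 0.05 (1.84% of all genes at that level).

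**Figure D1:**
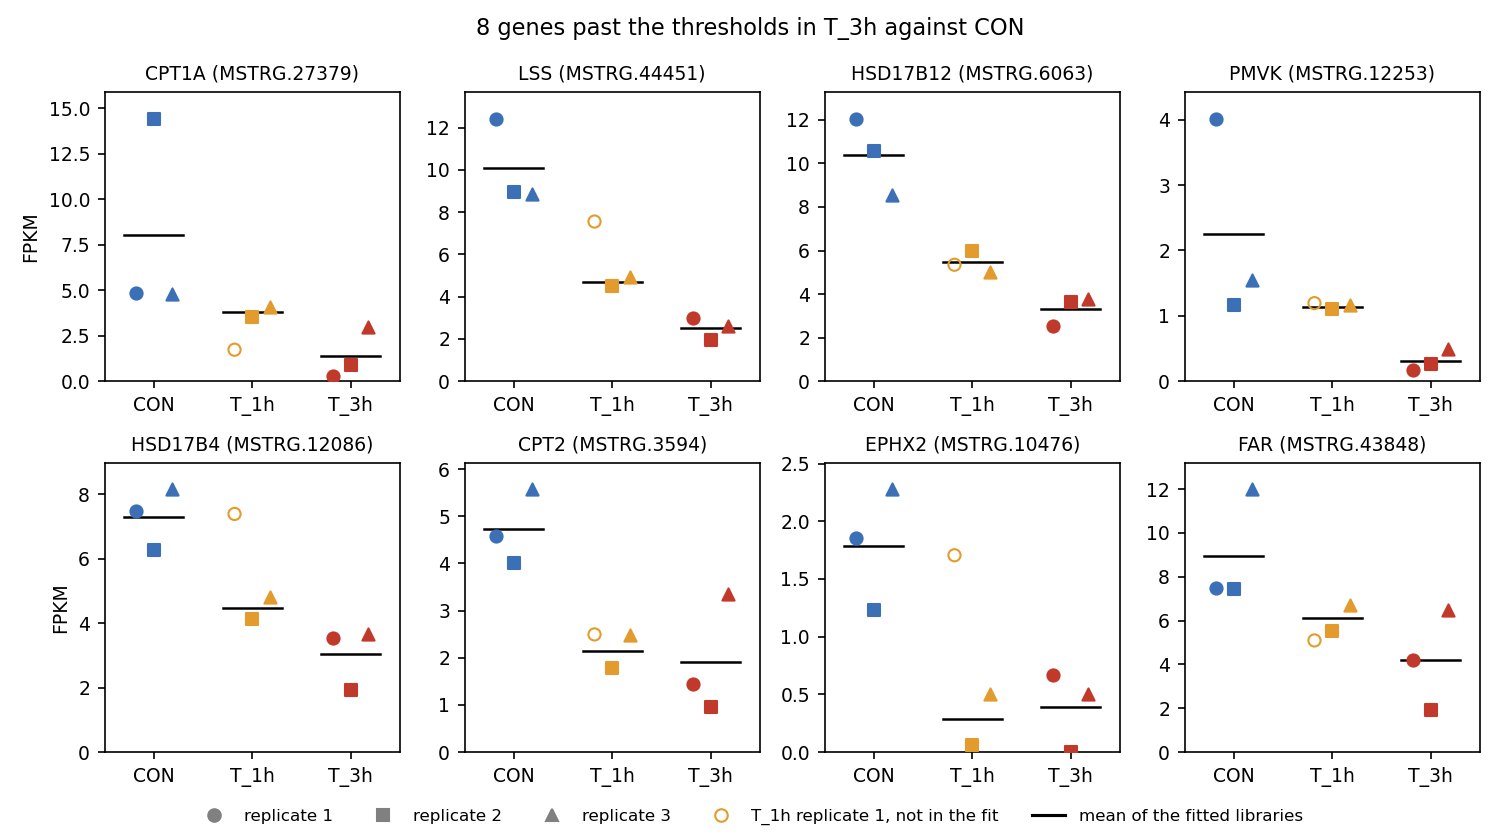
FPKM in each of the 9 libraries (vertical axis, starting at 0) at CON, T_1h and T_3h for 8 of the 9 genes past the thresholds in T_3h against CON, ordered by fold change; marker shapes give the replicate number, the open circle is the T_1h library left out of the fit and the black line is the mean of the fitted libraries. In each panel the 3 T_3h points lie below the 3 CON points, and in LSS, HSD17B12, PMVK and HSD17B4 also below all T_1h points.

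Sterol synthesis held the gene with the smallest p at T_3h. Lanosterol synthase (LSS, MSTRG.44451), the enzyme that folds oxidosqualene into the sterol ring system, had 12.4, 8.96 and 8.84 FPKM in CON, 7.55, 4.52 and 4.91 FPKM in T_1h and 3.01, 1.93 and 2.6 FPKM in T_3h. The 3 stages did not overlap. At T_3h the log2 fold change against CON was -1.65 (SE 0.34, unadjusted p = 0.00109, adjusted p = 0.626 in limma). At T_1h it was -0.94 (SE 0.38, unadjusted p = 0.0372 in limma), short of the fold limit. In the Ballgown-type test LSS passed at T_1h, with -1.05 (unadjusted p = 0.0109 in that test). The T_3h call held in each of the 18 alternative fits, with values between -1.96 and -1.23.

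Earlier steps of the route were tested in the same fit. Phosphomevalonate kinase (PMVK, MSTRG.12253), which KEGG also lists under peroxisomes, had 4.02, 1.17 and 1.55 FPKM in CON, 1.19, 1.11 and 1.16 FPKM in T_1h and 0.172, 0.264 and 0.489 FPKM in T_3h. Its log2 fold change at T_3h was -1.22 (SE 0.42), and the call was lost in the Ballgown-type test, without CON replicate 1 and without T_3h replicate 1, with 4.02 FPKM the highest of the CON values. HMG-CoA reductase, the enzyme that commits carbon to mevalonate, lies outside the 6 pathways and was read from a list of mevalonate genes. Its 2 gene models were both lower at T_3h. MSTRG.27773 had 1.32, 1.40 and 4.70 FPKM in T_3h, against 5.03, 8.81 and 5.73 FPKM in CON (log2 fold change -1.22, SE 0.46), and MSTRG.27772 had 0.459, 0.385 and 2.6 FPKM in T_3h, against 3.90, 5.80 and 2.90 FPKM in CON (log2 fold change -1.39, SE 0.49). The models carry neighbouring identifiers and 1 is described as partial, so they may share reads.

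The sterol genes described next did not pass. Squalene synthase (FDFT1, MSTRG.8519), which joins 2 farnesyl units, had 1.03, 0.829 and 2.31 FPKM in T_3h, against 1.24, 2.38 and 3.21 FPKM in CON. The higher of 2 squalene monooxygenase genes (SQLE, MSTRG.20897), which makes the substrate of LSS, had 1.12, 0.724 and 2.90 FPKM in T_3h, against 2.57, 1.57 and 3.51 FPKM in CON. In both the groups overlapped. The delta(14)-sterol reductase TM7SF2 (MSTRG.25708) had 0.183, 0.734 and 1.86 FPKM in T_3h, against 1.46, 2.99 and 3.51 FPKM in CON, and its log2 fold change was -0.97 (SE 0.46). The most abundant methylsterol monooxygenase gene (MSMO1, MSTRG.35787), whose description is the broader fatty acid hydroxylase domain-containing protein, had 2.22, 1.74 and 9.16 FPKM in T_3h, against 2.97, 10.2 and 10.1 FPKM in CON.

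Along the route from HMG-CoA synthase to NSDHL, 17 genes were set in order, and 9 of these were members of the 6 pathways with a mean of at least 1 FPKM. All 17 genes reached a mean of at least 1 FPKM. At T_3h 4 of them passed the thresholds (9.77% of all genes at that level). A log2 fold change below 0 was seen in 16 of the 17, against 79.7% of all genes at that level. The exception was 1 of 2 genes with the ortholog of isopentenyl-diphosphate isomerase (IDI), which makes the allylic unit that starts prenyl chains. This gene (MSTRG.29705) had 4.10, 2.67 and 2.46 FPKM in T_3h, against 1.26, 1.69 and 3.89 FPKM in CON (log2 fold change 0.37, SE 0.41). Its groups overlapped. The other (MSTRG.4108) had a log2 fold change of -0.16 (SE 0.37), and the file describes both by the same hypothetical protein. With median-ratio scaling both IDI genes were above 0 and the other 15 were still below 0. Then 3 passed, with the HMG-CoA reductase gene MSTRG.27773 no longer among them. With that scaling 2.81% of all genes at any level passed. The share among genes with a mean of at least 1 FPKM was not counted for that fit, so the 3 genes have no matched background. The median of all genes with that scaling was -0.02. Of the 17 genes LSS lay farthest from 0, and squalene synthase and both squalene monooxygenase genes lay nearer to it. The fold changes of the different steps were not tested against each other.

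**Figure D2:**
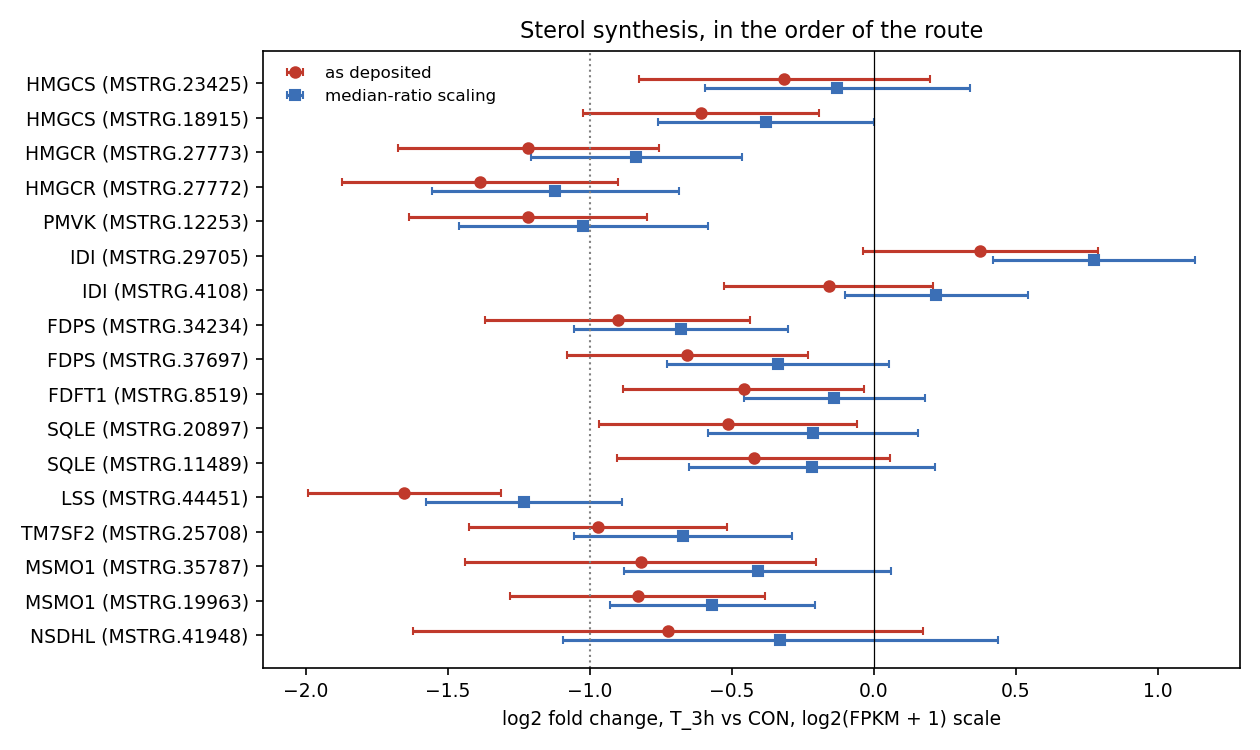
Log2 fold change of T_3h against CON on the log2(FPKM + 1) scale (horizontal axis) for 17 genes in the order of the sterol route from top to bottom; red circles are values as deposited, blue squares after median-ratio scaling, bars are 1 SE and the dotted line is the fold limit of -1. LSS at -1.65 lies farthest left, and the IDI gene MSTRG.29705 lies right of 0 at 0.37, joined there by the other IDI gene after scaling.

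The carnitine shuttle held 2 lower genes at T_3h. Carnitine palmitoyltransferase 1 (CPT1A ortholog, MSTRG.27379), which controls the entry of long chains into mitochondria, had 4.83, 14.4 and 4.77 FPKM in CON, 1.73, 3.54 and 4.06 FPKM in T_1h and 0.295, 0.919 and 2.96 FPKM in T_3h. All libraries of both heated stages, T_1h_1 included, lay below all CON libraries. After median-ratio scaling T_1h overlapped with CON, and T_3h still lay below it. The log2 fold change at T_3h was -1.91 (SE 0.56, unadjusted p = 0.00846, adjusted p = 0.686 in limma), and the call was lost only in the Ballgown-type test. The file's description joins a hypothetical protein with the liver isoform of carnitine O-palmitoyltransferase 1.

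Carnitine palmitoyltransferase 2 (CPT2, MSTRG.3594), which releases the chains on the inner side of the membrane, had 4.59, 4.0 and 5.57 FPKM in CON, 2.49, 1.78 and 2.49 FPKM in T_1h and 1.44, 0.947 and 3.36 FPKM in T_3h. Its log2 fold change was -1.05 (SE 0.41) at T_3h and -0.87 (SE 0.46) at T_1h. The T_3h call was lost under either scaling, in the Ballgown-type test and without any 1 of the CON libraries, T_3h_1 or T_3h_2. Carnitine acetyltransferase (CRAT, MSTRG.8497), which buffers acetyl groups, had 1.85, 1.70 and 4.82 FPKM in T_3h, against 2.56, 10.9 and 12.8 FPKM in CON. Each T_3h library lay below the CON library of the same number although the groups overlapped, and the log2 fold change of -1.23 passed with the replicate number as a block but not without it (block: SE 0.38, unadjusted p = 0.0145 in limma). The most abundant long-chain acyl-CoA synthetase (ACSL, MSTRG.20156), the activating enzyme, had 10.9, 4.23 and 9.86 FPKM in T_3h, against 7.98, 12.2 and 15.1 FPKM in CON, and did not pass. Over the 10 genes of activation and carnitine transfer, 2 were lower at T_3h (3.67% of all genes) and 9 had a fold change below 0 (71.3% of all genes).

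Inside mitochondria, 0 of 18 tested beta-oxidation genes passed at T_3h (4.14% of all genes). All 10 with a mean of at least 1 FPKM had a fold change below 0 (79.7% of all genes at that level), with a median of -0.79 against -0.40. HADHB (MSTRG.41467), described as uncharacterized protein B0303.3, had 14.7, 4.99 and 14.6 FPKM in T_3h, against 19.9, 20.8 and 25.1 FPKM in CON. The groups did not overlap, and the log2 fold change of -1.0 (SE 0.44, unadjusted p = 0.0519 in limma) passed with the replicate block, with an unadjusted p = 0.0343. The mitochondrial thiolase ACAA2 (MSTRG.6075), which cuts the last bond of each cycle, had 3.63, 2.56 and 6.23 FPKM in T_3h, against 6.69, 10.4 and 8.08 FPKM in CON, without overlap and with a log2 fold change of -0.91 (SE 0.39, unadjusted p = 0.0463 in limma). After median-ratio scaling its groups overlapped. An ACADVL gene described as very long-chain specific (MSTRG.17083) had 2.97, 2.18 and 6.36 FPKM in T_3h, against 4.66, 8.79 and 11.6 FPKM in CON. An ACADVL gene described as family member 9 (MSTRG.40665) had 6.71, 1.91 and 9.07 FPKM in T_3h, against 1.34, 7.14 and 13.7 FPKM in CON, so that the groups overlapped widely.

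Peroxisomal oxidation counted 28 genes, of which 1 was lower at T_3h (3.67% of all genes). The multifunctional enzyme type 2 (HSD17B4, MSTRG.12086), which carries out both middle steps of peroxisomal beta-oxidation, had 7.49, 6.28 and 8.15 FPKM in CON, 7.39, 4.12 and 4.81 FPKM in T_1h and 3.56, 1.93 and 3.67 FPKM in T_3h. The log2 fold change at T_3h was -1.06 (SE 0.35, unadjusted p = 0.0163, adjusted p = 0.737 in limma). It was not called after scaling, in the Ballgown-type test, or without CON replicate 3 or T_3h replicate 2. The most abundant sterol carrier protein 2 gene (SCP2, MSTRG.21662), a lipid transfer protein joined to a thiolase, had 0.743, 0.539 and 11.9 FPKM in T_3h, against 0.924, 11.9 and 23.4 FPKM in CON. Its log2 fold change of -1.38 passed with the block but not without it (block: SE 0.56, unadjusted p = 0.0447 in limma). A gene with the ECI2 ortholog number that is described as an acyl-CoA binding protein (MSTRG.5718) had 1.94, 0.339 and 11.5 FPKM in T_3h, against 2.51, 2.98 and 5.56 FPKM in CON, so that the highest and the lowest value of the 6 libraries were both in T_3h. The thioesterase ACOT8 (MSTRG.2376), which frees fatty acids from coenzyme A, had 0.945, 0.482 and 4.03 FPKM in T_3h, against 0.573, 1.87 and 2.37 FPKM in CON.

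Peroxisome assembly and transport held no gene past the thresholds at T_3h (4.14% of all genes). The 11 peroxins, the proteins that import enzymes and form the organelle, had means from 0.225 to 3.35 FPKM and a median log2 fold change of -0.17, equal to that of all genes to 2 decimals. PEX3 (MSTRG.3052), which places membrane proteins into the organelle and was the most abundant peroxin, had 2.95, 1.97 and 3.54 FPKM in T_3h, against 3.5, 4.2 and 4.56 FPKM in CON, with a narrow overlap. The 5 membrane transporters had a median of -0.62. Among them PMP34 (SLC25A17, MSTRG.31091), which carries coenzyme A and nucleotides in vertebrates, had 0.782, 2.56 and 4.69 FPKM in T_3h, against 2.25, 4.83 and 12.3 FPKM in CON. The fatty acid transporter ABCD3 (MSTRG.8708) had 3.72, 0.773 and 1.6 FPKM in T_3h, against 4.70, 3.61 and 2.03 FPKM in CON. In both transporters every T_3h library lay below the CON library of the same number, and the groups overlapped. After median-ratio scaling T_3h_2 lay above CON_2 in PMP34, and T_3h_3 above CON_3 in ABCD3. The share of all genes with this order by number was not counted, which also holds for CRAT and FADS2.

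Among 21 other peroxisomal enzymes, 2 were lower at T_3h (3.67% of all genes). One was PMVK. The other was a soluble epoxide hydrolase (EPHX2, MSTRG.10476), which opens fatty acid epoxides. It had 1.85, 1.23 and 2.28 FPKM in CON, 1.71, 0.0609 and 0.506 FPKM in T_1h and 0.669, 0 and 0.506 FPKM in T_3h. Its log2 fold change was -1.02 (SE 0.38) at T_3h and -1.12 (SE 0.43) at T_1h. The rest of this group is made up largely of 2 families that also work outside peroxisomes, 7 xanthine dehydrogenase genes (XDH, means 0.0339 to 2.87 FPKM) and 7 retinal reductase-like genes (DHRS4, means 0.033 to 2.1 FPKM), and none of these 14 passed. EPHX2 was low throughout. With a mean of 0.888 FPKM it lies under the level of 1 FPKM, and its T_1h call was lost once T_1h_1, at 1.71 FPKM, entered the fit. The T_1h call was also lost with the pseudocount of 0.1, under either scaling, in the Ballgown-type test, and without CON replicate 3 or T_1h replicate 2. The T_3h call was lost with the pseudocount of 0.1, under either scaling, in the Ballgown-type test, and without CON replicate 1, CON replicate 3 or T_3h replicate 2.

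Ether lipid synthesis begins with a fatty alcohol made by fatty acyl-CoA reductase. FAR (MSTRG.43848) had 7.48, 7.43 and 12 FPKM in CON, 5.09, 5.52 and 6.69 FPKM in T_1h and 4.18, 1.93 and 6.49 FPKM in T_3h. All 6 heated libraries lay below all CON libraries. After median-ratio scaling T_1h overlapped with CON, and T_3h still lay below it. The log2 fold change at T_3h was -1.01 (SE 0.44, unadjusted p = 0.0488 in limma), at the edge of both limits, and it was called in 5 of the 10 other fits and in 1 of the 8 fits without a library. AGPS (MSTRG.36898), which joins that alcohol to the backbone, had 8.37, 5.34 and 13.3 FPKM in T_3h, against 11.8, 12.4 and 18.4 FPKM in CON, and did not pass.

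**Figure D3:**
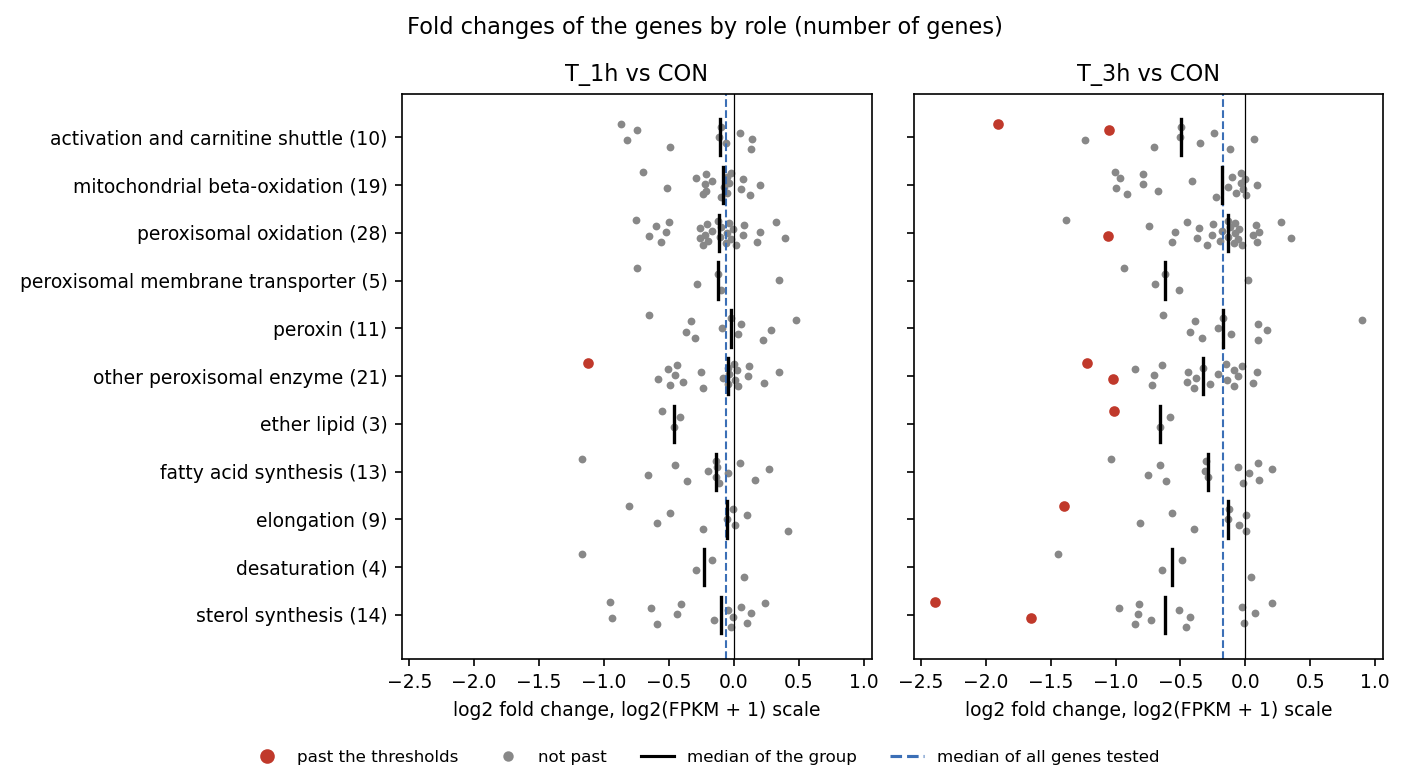
Log2 fold change on the log2(FPKM + 1) scale (horizontal axes) of each tested gene against CON at T_1h (left) and T_3h (right), by role from top to bottom with the number of genes in brackets; red points are past the thresholds, black bars are medians of a role and the dashed line is the median of all genes tested. At T_1h 1 red point is seen, and at T_3h 9 red points lie in 6 of the roles, all left of 0.

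In fatty acid synthesis 0 of 13 genes passed at T_3h (4.14% of all genes). Fatty acid synthase (FASN, MSTRG.34979), the multienzyme that builds palmitate, had 10.2, 1.18 and 6.69 FPKM in T_3h, against 4.35, 2.48 and 8.56 FPKM in CON, with a log2 fold change of 0.03 (SE 0.66). The more abundant of 2 acetyl-CoA carboxylase genes (ACAC, MSTRG.40757), the source of malonyl-CoA, had 2.31, 1.53 and 4.03 FPKM in T_3h, against 2.15, 4.9 and 7.08 FPKM in CON. Both enzymes overlapped between the groups. A mitochondrial-type 3-oxoacyl synthase (OXSM, MSTRG.31152) had 4.44, 0.341 and 3.26 FPKM in T_3h, against 5.96, 5.42 and 4.94 FPKM in CON. These groups did not overlap, and the log2 fold change of -1.03 passed with the block but not without it (block: SE 0.43, unadjusted p = 0.0474 in limma). After median-ratio scaling the OXSM groups overlapped.

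Elongation, in contrast, held the gene with the most even change between stages. HSD17B12 (MSTRG.6063), the 3-oxoacyl-CoA reductase of the elongation cycle, had 12.1, 10.6 and 8.55 FPKM in CON, 5.35, 5.96 and 5.0 FPKM in T_1h and 2.55, 3.62 and 3.79 FPKM in T_3h. As deposited, the 3 stages did not overlap, T_1h_1 included. After median-ratio scaling both heated stages overlapped with CON, with 6.09 FPKM in T_3h_2 against 5.74 FPKM in CON_3. The log2 fold change was -0.81 (SE 0.38) at T_1h and -1.40 (SE 0.34, unadjusted p = 0.00294, adjusted p = 0.631 in limma) at T_3h. It was -0.95 with the scaling nearest to 0, and the call was lost under either scaling. The gene has no description in the file and was assigned by its ortholog number. The elongases themselves, which carry out the first step of the cycle, were low. ELOVL1 (MSTRG.41743) had 0.411, 0.0652 and 1.0 FPKM in T_3h, against 3.43, 0.994 and 0.839 FPKM in CON, and the 4 ELOVL4 genes had means from 0.0142 to 0.0991 FPKM.

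At T_1h, 1 of 136 genes was lower than in CON and 0 were higher (0.735%, against 0.871% of all genes, of which 0.473% were lower and 0.398% higher). This gene was EPHX2, described above. At an unadjusted p under 0.05 there were 2 genes (1.76% of all genes), and after adjustment in limma 0 (0% of all genes). The median log2 fold change was -0.11, against -0.06 over all genes. In 27 genes (19.9%) both fitted T_1h libraries lay below all CON libraries, against 7.85% of all genes, and in 1 gene they lay above (4.37% of all genes). After median-ratio scaling the counts were 16 lower (11.8%, against 5.06% of all genes) and 3 higher (2.21%, against 6.95%). These counts rest on 2 T_1h libraries, which overlap with CON less easily than 3 do.

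In T_3h against T_1h, which tests directly whether the 2 heated stages differ, 1 gene was lower and 0 were higher. This is 0.735%, against 0.728% of all genes, of which 0.645% were lower and 0.0824% higher. After adjustment in limma 0 passed (0% of all genes), with 1 at an unadjusted p under 0.05 (1.54% of all genes).

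A large part of the variation followed the replicate number rather than the stage. Over the 63 genes with a mean of at least 1 FPKM, differences between replicate numbers held a median of 39.9% of the variance of log2(FPKM + 1) and differences between stages 30.2%. Over all genes at that level the medians were 52.5% and 16.5%. The stage held the larger share in HSD17B12 (92.6%) and LSS (89.8%), among others. These shares describe the same values as the tests and add no evidence to them.

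**Figure D4:**
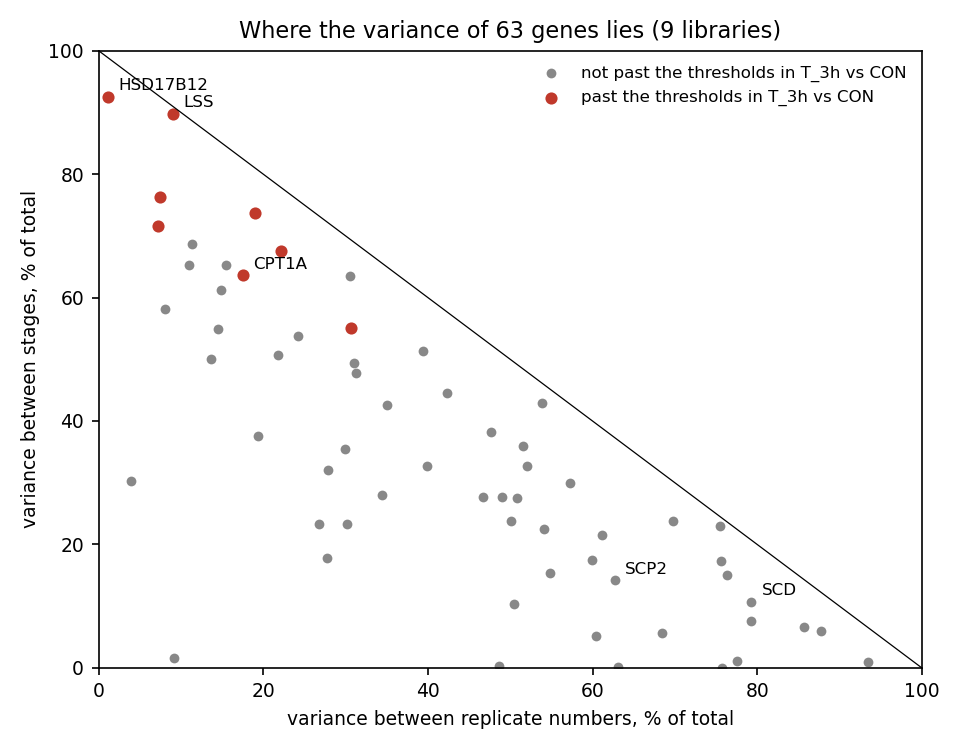
Share of the variance of log2(FPKM + 1) over 9 libraries that lies between replicate numbers (horizontal axis, %) and between stages (vertical axis, %) for 63 genes with a mean of at least 1 FPKM; red points passed the thresholds in T_3h against CON and the line marks a sum of 100%. HSD17B12 and LSS lie at the upper left, with 92.6% and 89.8% between stages, and SCD at the lower right, with 79.3% between replicate numbers.

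SCD (MSTRG.45070), which places the first double bond in saturated chains, followed the number most visibly because of its level. It had 121, 7.94 and 73.4 FPKM in CON, 133, 6.24 and 50.1 FPKM in T_1h and 117, 3.70 and 6.26 FPKM in T_3h. The first library of each stage was the highest and the second the lowest, and the number held 79.3% of its variance against 10.7% for the stage. Only T_3h_3 stood away from the other libraries of its number. The 2 genes of fatty acid desaturase 2 (FADS2), which starts the making of polyunsaturated chains, were instead highest in the third CON library. MSTRG.14874 had 0.353, 0.119 and 1.78 FPKM in T_3h, against 0.949, 0.486 and 3.01 FPKM in CON, and MSTRG.18944 had 0.281, 0.118 and 1.11 FPKM in T_3h, against 1.24, 0.482 and 2.45 FPKM in CON. In both, each T_3h library lay below the CON library of its number, and neither gene passed. Without SCD the summed levels were 256, 337 and 420 FPKM in CON, 221.6, 202 and 272 FPKM in T_1h and 171, 90.3 and 268 FPKM in T_3h. T_3h_3 then lay above CON_1.

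Other genes followed the number in another order. The sterol dehydrogenase NSDHL (MSTRG.41948), which removes a methyl group from sterol intermediates, had 0.900, 6.07 and 15.3 FPKM in CON, 1.91, 3.60 and 6.45 FPKM in T_1h and 0.879, 1.38 and 9.90 FPKM in T_3h, and was lowest in the first library of each stage. The ACADVL gene MSTRG.32484 had the highest share by number of the 63 genes, 93.4%, with 7.15, 4.32 and 5.80 FPKM in the third libraries of CON, T_1h and T_3h and at most 1.2 FPKM in the other 6. FASN had 75.7% by number and 0.0242% by stage.

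**Figure D5:**
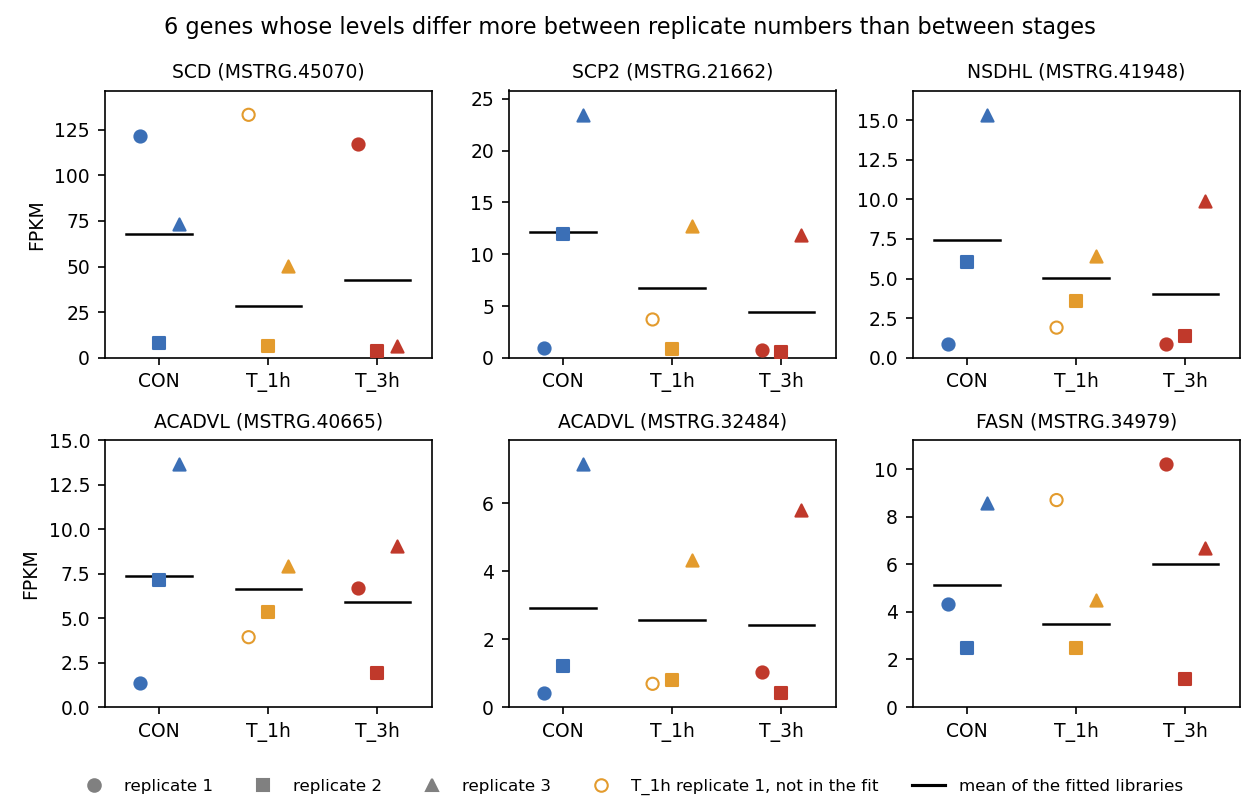
FPKM in each of the 9 libraries (vertical axis, starting at 0) at CON, T_1h and T_3h for 6 genes; marker shapes give the replicate number, the open circle is the T_1h library left out of the fit and the black line is the mean of the fitted libraries. SCD is high in replicate 1 of every stage (117 to 133 FPKM) and low in replicate 2 (3.70 to 7.94 FPKM), whereas NSDHL and the ACADVL gene MSTRG.32484 are highest in replicate 3.

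Genes outside the 6 pathways were read from 2 lists meant to cover lipid handling. Of all genes 0.473% were higher and 3.67% lower at T_3h, and 0.871% passed at T_1h. Of 65 tested genes on a list meant for lipid regulators and carriers, 1 was higher and 5 were lower at T_3h, and 0 passed at T_1h. That list was matched by description, and many of its genes are described as low-density lipoprotein receptor-related proteins. Among these are the higher gene (MSTRG.42675) and the lower gene MSTRG.12930, so the counts are not specific to lipid handling. Of 21 tested genes of the mevalonate and prenyl pathway, 1 was higher and 2 lower at T_3h, the lower ones being the HMG-CoA reductase models. The higher one, named because it was the single gene of this direction, was a subunit of dehydrodolichyl diphosphate synthase (DHDDS, MSTRG.12504), which makes the dolichol used to build sugar chains. It had 13.1, 7.31 and 12 FPKM in T_3h, against 0.435, 1.21 and 1.47 FPKM in CON, with a log2 fold change of 2.53 (SE 0.75, unadjusted p = 0.00896 in limma). In T_1h it had 12.5, 14.5 and 0.667 FPKM, so that 1 of the 3 libraries was at the CON level. Another gene of the list with the same ortholog and description (MSTRG.29189) did not pass. It had 1.37, 0.591 and 6.42 FPKM in T_3h, against 0.827, 1.34 and 10.7 FPKM in CON (log2 fold change -0.28, SE 0.89).

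The tissue label was checked against marker lists matched by description. The lists of collagen, muscle, coelomocyte, nerve, gut and gonad genes were all detected, with collagen genes summing to 2967 to 7752 FPKM per library. Gut and gonad lists were detected although the viscera had been removed, so detection of a list does not establish the tissue. The lists differed in direction at T_3h. The gene counts below are of genes with a mean of at least 1 FPKM. Of all genes at that level, 8.63% passed as lower at T_3h and 1.14% as higher. All 12 nerve genes with a mean of at least 1 FPKM had a fold change below 0 at T_3h, against 79.7% of all genes at that level. The thresholds were passed by 4 of them (9.77% of all genes at that level). Their summed level was 23.9, 11.4 and 42.1 FPKM in T_3h, against 35.3, 68.5 and 74.4 FPKM in CON, and of 82 genes of the list 0 were at 0 in every library. Gut markers summed to 88.9, 84.5 and 199.7 FPKM in T_3h, against 139, 260 and 200.1 FPKM in CON, and 20 of 23 had a fold change below 0, of which 3 passed, while 1 gut gene was higher. Coelomocyte markers summed to 1078, 502 and 1199 FPKM in T_3h, against 353, 554 and 836 FPKM in CON. Of 50 such genes 29 had a fold change below 0, and 0 passed as lower and 3 as higher. Muscle markers summed to 81.7, 109 and 186 FPKM in T_3h, against 74.3, 121 and 127 FPKM in CON. Of 9 such genes 4 had a fold change below 0, and 1 passed as lower and 3 as higher. Of 12 collagen genes 7 had a fold change below 0, and 1 passed as lower and 2 as higher. Gonad markers summed to 12.1, 3.43 and 9.70 FPKM in T_3h, against 10.8, 13.6 and 10.9 FPKM in CON. Of 2 such genes 2 had a fold change below 0, and 0 passed. The part of these lists in the results above was not tested. T_3h_2 also had the lowest median-ratio factor, 0.594, and CON_3 the highest, 1.49.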

How the data were processed

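RNA of 9 body wall libraries was sequenced by the authors in paired-end mode after mRNA library preparation. Per the study's methods the reads were filtered, aligned with HISAT and assembled and quantified with StringTie and Ballgown. The submitters' processing notes list HISAT2 2.0, StringTie 1.3.0, Bowtie 0.12.2 and the build mm8, without saying what each was used for. The authors deposited FPKM values per gene, not counts, so the depth behind each value is unknown and no counting interval is given. The table pairs gene identifiers with descriptions and KEGG ortholog numbers but gives no coordinates, and none of the identifiers matched the reference gene table (ASM3797524v1), so no position or sequence is reported.

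Values were transformed to log2(FPKM + 1) and fitted with limma 3.58.1 (R 4.3.3, trend option) as 1 model of 3 groups on 8 libraries, without T_1h_1 as in the study, over 50973 genes above 0 in at least 2 fitted libraries, which included 136 of the 137 members. Genes passed when the unadjusted p was 0.05 or less and the change, in either direction, 1 or more on the log2 scale. Benjamini-Hochberg adjustment ran over all genes. The fit was also run on simulated data, in which the libraries were independent of each other. The deposited libraries of the same number are not, so that run gives no error rate for these data. The p-values measure the spread between the deposited libraries, which the labels call biological replicates without naming their animals. Permuting 3 against 3 libraries exactly cannot give a p under 0.1 for 1 gene, so no such test is given.

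Libraries of the same number deviated together from their stage means: over all genes the correlation was 0.593 to 0.721 in the 9 pairs of same-numbered libraries and on average -0.330 between numbers. The sources used here do not say what the number stands for. A fit with the replicate number as a block was therefore run beside the main one.

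Named genes were the most abundant described gene of each role, the 10 most abundant described genes, and up to 8 genes per direction with the largest change past the thresholds and a mean of at least 1 FPKM. All other genes named, which include MSTRG.6063, MSTRG.27379, MSTRG.10476, MSTRG.41467 and the IDI genes, were chosen after their values were seen, as was the grouping by ortholog. Values of 4 members, which the counts include, are not reported here. The members and lists were chosen with earlier results of these data known. Alternatives were a pseudocount of 0.1, a mean of at least 1 FPKM, all 9 libraries, median-ratio and upper-quartile scaling, a Ballgown-type test, the block, and leaving out each library. Python 3.11.15, pandas 2.3.3 and matplotlib 3.10.9 were used.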

Additional observations from a re-analysis of the deposited data

How the results depend on the processing

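The 9 lower genes at T_3h became 5 genes with median-ratio or upper-quartile scaling (1 higher, 4 lower). With median-ratio scaling this is 3.68%, against 2.81% of all genes. With the Ballgown-type test there were 2 (1.47%, against 1.54% of all genes). Leaving out 1 library gave 5 to 18, with 5 without T_3h replicate 2 (2.43% of all genes) and 18 without T_3h replicate 3 (7.28% of all genes). At T_1h the 1 gene became 0 with the pseudocount of 0.1, the level filter, all 9 libraries or either scaling. It became 0 to 2 without 1 library, with 0 without CON replicate 3 or T_1h replicate 2 and 2 without T_3h replicate 2. The Ballgown-type test gave 1 lower gene at T_1h (1.4% of all genes in either direction), but this was LSS and not EPHX2. In T_3h against T_1h the 1 gene became 2 with the pseudocount of 0.1, 0 with the level filter or either scaling, and 0 to 3 without 1 library. The 3 genes without T_3h replicate 3 (2.21%, against 3.1% of all genes) were ACADVL, CPT1A and MSMO1. In the Ballgown-type test the 1 gene of T_3h against T_1h was another one and higher (0.347% of all genes in either direction). This was the ECI2 gene MSTRG.5718, with a log2 fold change of 1.38. The cause was not tested.

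With the replicate number as a block, the counts were 1 at T_1h, 13 at T_3h (6.22% of all genes) and 1 in T_3h against T_1h. All 9 genes of T_3h remained, and HADHB, CRAT, SCP2 and OXSM were added, and the block changed no other call of these genes. Fits chosen after seeing the data joined the block with all 9 libraries and a mean of at least 1 FPKM. The first gave 12 of 62 genes at T_3h (15.5% of 20334 genes at that level), and 5 of 62 had an adjusted p under 0.05 (6.35% of all, 1291 genes), among them LSS (0.0199), HSD17B12 (0.0317), CPT1A (0.0355) and the acyl-CoA dehydrogenase ACADSB (MSTRG.15934, 0.0475). With median-ratio scaling added, 5 genes passed at T_3h (9.54% of all) and 0 at T_1h, and LSS alone had an adjusted p under 0.05 (0.046; 375 genes, 1.84% of all).

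No named gene that passed in the reported fit or in an alternative passed with the opposite sign. Low FPKM limits the reading of 74 of the 137 genes, whose means lie under 1 FPKM.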
